A study of Rattus norvegicus with 12 samples.

Results

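The transcript make-up of fresh purified red blood cells (RBCs) was described from the 4 Cont libraries, which were made from rat RBCs purified on the day of blood sampling. The members are all 29539 rows of the deposited gene table in these 4 of the 12 libraries of the series, read as total counts and as TPM, which are counts divided by transcript length and scaled to the same sum in every library. The rats were male Wistar animals of 11 weeks with no treatment, their blood was taken into the anticoagulant CPDA, and RBCs were separated from plasma and buffy coat by 5 washes before the total RNA was depleted of rRNA and sequenced. The blood of each rat was also divided for storage, but stored samples were not used here, and the rat behind each replicate number is not given in the sources used here. With 1 group, no comparison between groups was made. A two-sided sign test over 4 libraries cannot pass 0.05, so differences between rows are given with their values in every library.

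Mammalian RBCs lose their nucleus and cannot make new RNA. The RNA of circulating RBCs is a remnant of the reticulocyte, the young red cell that still holds ribosomes and mitochondria and clears them by autophagy and by the ubiquitin system while it finishes making hemoglobin. The rows of *Hba* and *Hbb* (the alpha and beta chains of hemoglobin) and of 7SL RNA (the RNA scaffold of the signal recognition particle, listed as *Rn7sl1* and Metazoa_SRP copies) were set aside to rank the rest.

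These 31 rows held most of each library. The 4 globin rows took 81.3% ± 1.12 of the counts and 54.4% ± 0.884 of the TPM (SD, n = 4), and the 27 rows of 7SL took 4.57% ± 0.440 of the counts and 32.1% ± 2.39 of the TPM. The globin signal lay almost wholly in *Hba-a2*, with a mean of 312454 TPM, and *Hbb-b1*, with 230174 TPM. The alpha to beta ratio of summed TPM was 1.111, 1.349, 1.536 and 1.495 in Cont replicates 1 to 4. It was lowest in replicate 1, where *Hbb-b1* had its highest value of 252947 TPM. *Hba-a3* lies inside the span of *Hba-a2*, and the 7SL copies resemble each other, so how reads were divided within these rows is uncertain. All other rows held 14.2% ± 1.56 of the counts and 13.5% ± 1.51 of the TPM. That remainder was 11.9%, 13.2%, 15.6% and 13.4% of the TPM in replicates 1 to 4, so a TPM value in replicate 3 stands higher than in replicate 1 wherever the share of the remainder is equal. Libraries held 85996710, 79904374, 65735930 and 77418403 counts, of which 12.5%, 13.8%, 16.2% and 14.2% were left after the set-aside rows. Both reads of a pair seem to have been counted, which widens the counting error, and intervals or limits from counts cover counting error only.

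**Figure D1:**
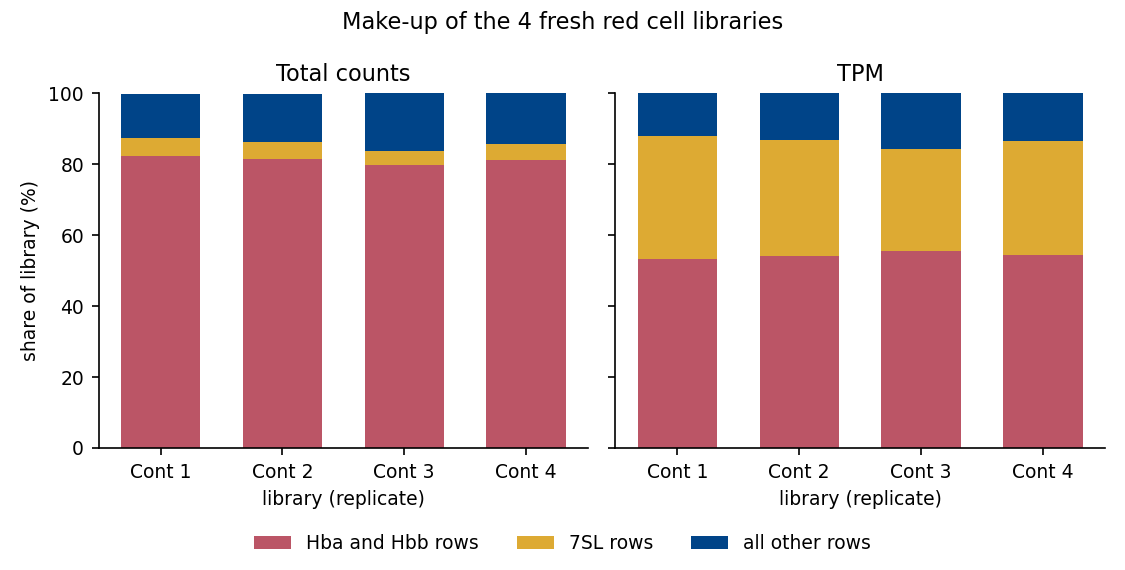
Share of each of the 4 Cont libraries (%) held by the *Hba* and *Hbb* rows, the 7SL rows and all other rows, in total counts (left) and in TPM (right). In TPM the 7SL rows take 28.9% to 34.6% of a library and all other rows 11.9% to 15.6%.

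A count was found for 18323 rows in at least 1 Cont library and for 10823 rows in all 4, while 3521 rows had a count in 1 library only. After the set-aside rows, 3260 rows reached a mean of 1 TPM, 712 reached 10 TPM, 144 reached 100 TPM and 17 reached 1000 TPM. The remainder was concentrated in few rows. The 10 highest rows held 45.1% ± 1.58 of the remaining TPM and the 30 highest held 59.5% ± 1.14. Per library, 13, 15, 15 and 17 rows in replicates 1 to 4 were enough for 50% of the remaining TPM.

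The ranking of the most abundant rows was alike in the 4 libraries. The same 10 rows were the top 10 in every library, and 26 of the 30 highest rows by mean TPM were among the top 30 of every library. Of the 30 pairs of neighbours from rank 1 to rank 31, the library values overlapped in 28, the exceptions being the step from rank 2 to *Tpt1* and the step from rank 10 to *Ftl1_1*. Within libraries, 8 of the 30 pairs had the same order in all 4, such as *Ubb* above *Fth1* and *Ftl1_1* above *Rpph1*. By TPM 27 of the 30 rows were highest in replicate 3, whereas by share of the remaining TPM only 9 were.

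**Figure D2:**
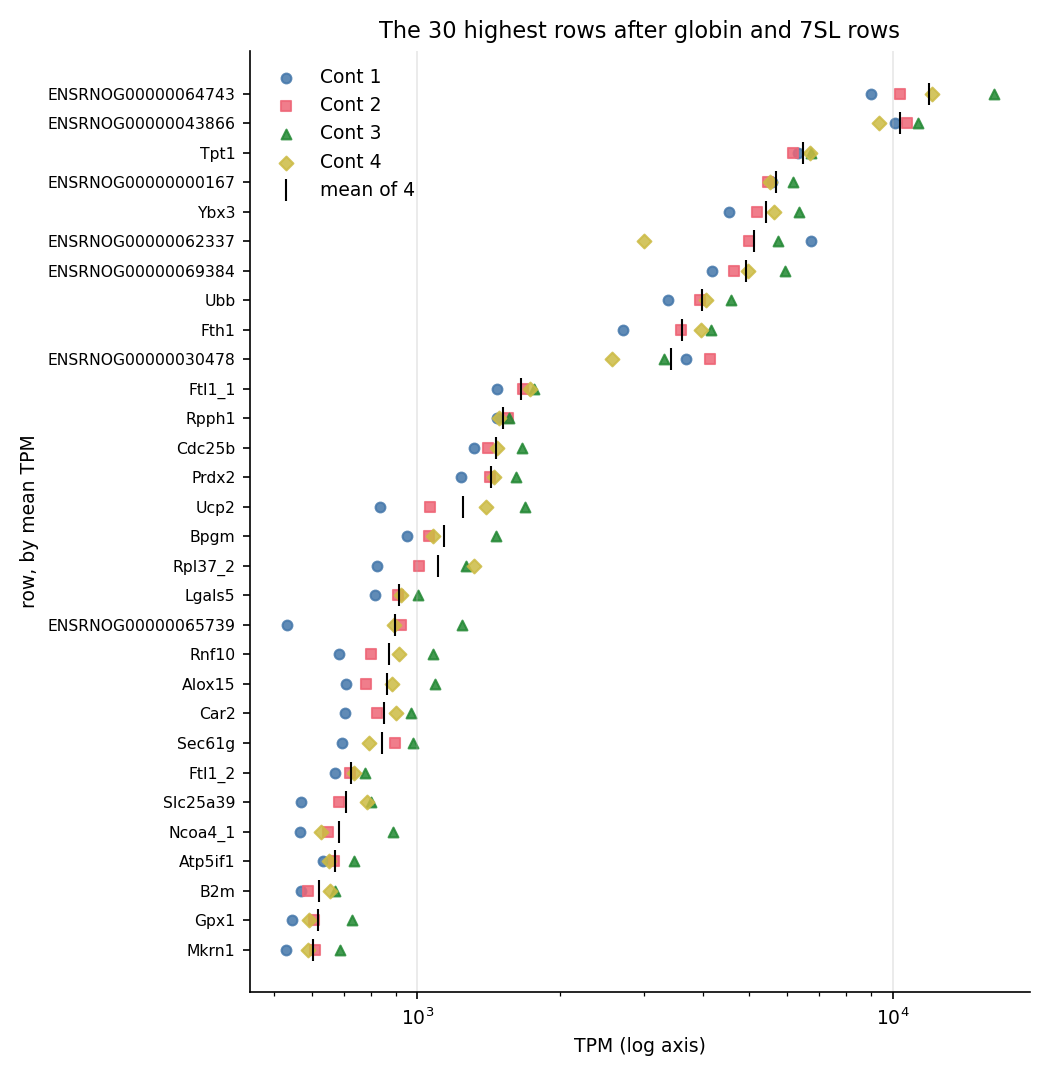
TPM (log axis) of the 30 highest rows after globin and 7SL rows, with 1 point for each Cont library and a bar at the mean of 4. Values fall from 11958 TPM at rank 1 to 603 TPM at rank 30, and the points of neighbouring rows overlap in most places.

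Among the 30 highest rows, 7 are listed with no gene symbol and are given by their Ensembl identifier and mRatBN7.2 position. The highest was ENSRNOG00000064743 on chromosome 3 (2235683 to 2240483), with 9011, 10365, 16378 and 12080 TPM in replicates 1 to 4. ENSRNOG00000062337, on the same chromosome (2231807 to 2233678), had 6743, 4999, 5748 and 2994 TPM. The first was highest in replicate 3 and the second in replicate 1, so the pair did not move together. These rows lie on either side of a row named for the 5.8S rRNA. Together they held 12.6% ± 1.36 of the remaining TPM and 22.2% ± 2.09 of the remaining counts. Whether these rows hold rRNA that remained after depletion was not tested. Unless stated, they are part of the ranks, shares and scaling given here. ENSRNOG00000000167 on chromosome X (19463171 to 19486519) had 5581, 5474, 6178 and 5535 TPM, and ENSRNOG00000069384 on chromosome 5 (132604672 to 132604905) had 4171, 4635, 5936 and 4954 TPM. ENSRNOG00000065739 on chromosome 10 had 530.3, 922, 1243 and 891 TPM and was lowest in replicate 1.

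The mitochondrial genome held 11.4% ± 1.32 of the remaining TPM. Most of it came from 2 rows without a symbol, and whether these hold mitochondrial rRNA that remained after depletion was not tested. ENSRNOG00000043866 (MT 1094 to 2664) had 10110, 10726, 11326 and 9364 TPM in replicates 1 to 4, and ENSRNOG00000030478 (MT 68 to 1025) had 3671, 4131, 3303 and 2563 TPM. The 13 rows with a symbol held 1.09% ± 0.0261, and all 13 were found in every library. *Mt-co1*, a core subunit of cytochrome c oxidase, had 459.9, 454, 510.1 and 448 TPM. *Mt-co3*, another subunit of that enzyme, had a mean of 318 ± 41.0 TPM, and *Mt-atp6*, a subunit of ATP synthase, 275 ± 40.5 TPM. The share of the whole mitochondrial genome was 12.6% and 12.4% in replicates 1 and 2 and 10.5% and 10.0% in replicates 3 and 4. The nuclear genes of the respiratory chain and ATP synthase held 1.56% ± 0.0574, with 72 of 94 rows found in every library. They were led by *Atp5if1*, the inhibitor of the ATP synthase, which had 632, 668, 735 and 651 TPM. *Cox7b* (281 ± 37.1 TPM) and *Uqcrh* (239.8 ± 15.9 TPM), small subunits of the chain, followed. *Ucp2*, which encodes a carrier of the inner mitochondrial membrane, was more variable, with 833, 1063, 1687 and 1398 TPM.

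Of the genes with a symbol, *Tpt1*, which encodes the translationally controlled tumor protein, had the highest TPM, with 6339, 6163, 6747 and 6711. In counts, which are not divided by length, *Ubb* (39322 CPM of the remainder) and *Ybx3* (35088) stood above *Tpt1* (34879). *Ybx3*, a Y-box protein that binds mRNA, had 4526, 5191, 6358 and 5634 TPM. As a share of counts left, the libraries differed at most 1.08-fold for *Ybx3* and 1.29-fold for *Tpt1*. *Ybx3* made up 78.6% of the class RNA binding and decay, which held 5.08% ± 0.364 of the remaining TPM. The next members were *Tent5c*, a poly(A) polymerase, with 362, 536, 839 and 563 TPM, and *Rbm38*, an RNA-binding protein, with 418, 549, 690.1 and 632 TPM. By TPM and by share of the remainder, both were lowest in replicate 1. *Tent5c* was highest in replicate 3 by either measure, whereas the share of *Rbm38* was highest in replicate 4. Of the 42 rows on this list 26 reached a mean of 1 TPM, and *Pnrc2_2*, *Igf2bp1* and *Lin28b* had 0 counts in all 4 libraries.

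Cytosolic ribosomal proteins held 6.28% ± 0.506 of the remaining TPM (6.22%, 5.79%, 6.13% and 6.99%), with 87 of 111 rows found in every library. By counts the order of the classes turned, with ubiquitin conjugation at 6.04%, RNA binding and decay at 5.41% and iron handling at 3.88% of the remaining counts above ribosomal proteins at 2.40%. *Rpl37_2* led with 821, 1009, 1266 and 1317 TPM, followed by *Rps29_1* (572 ± 45.5 TPM) and *Rpl38_4* (566 ± 71.4 TPM). The suffix marks 1 of several rows with the same symbol, and reads may be shared among such copies. Translation factors held 0.465% ± 0.0315, led by *Eef1a1* (296 ± 31.4 TPM), which brings aminoacyl-tRNA to the ribosome, *Eif1* (101 ± 34.5 TPM) and *Eef1e1* (58.7 ± 15.4 TPM). *Sec61g*, a subunit of the channel that takes new proteins into the endoplasmic reticulum, had 695, 896, 980.3 and 790.5 TPM.

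**Figure D3:**
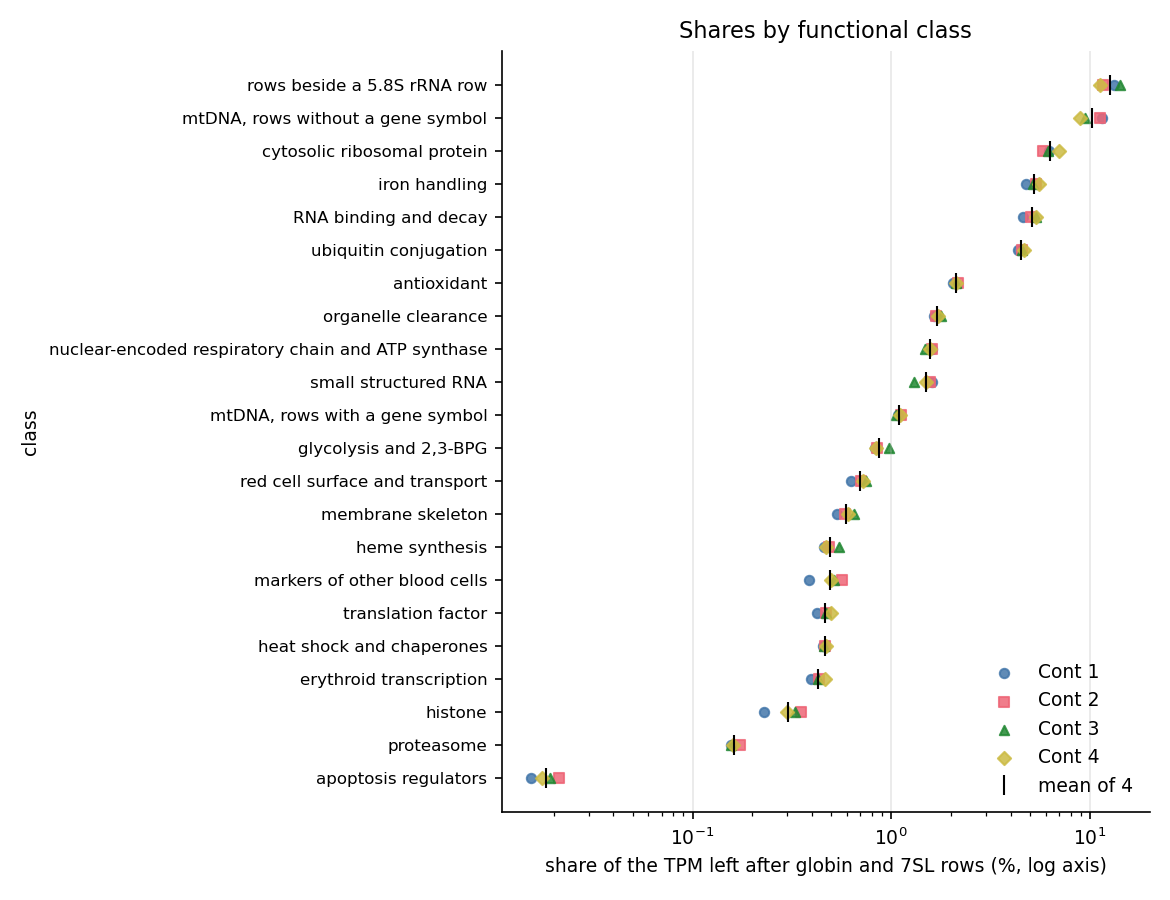
Share of the TPM left after globin and 7SL rows (%, log axis) held by classes of rows. There is 1 point for each Cont library and a bar at the mean of 4. Rows that no class rule took are not drawn. They are other genes with a symbol (30.5% ± 0.744) and other rows without a symbol (12.6% ± 0.246). By TPM, ribosomal proteins lead the classes defined by function with 6.28%, a lead that does not hold by counts. The classes of the red cell membrane, heme synthesis (without *Alas2*) and erythroid transcription lie between 0.43% and 0.70%.

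The ferritins stood high among the genes with a symbol. *Fth1*, the heavy chain of the iron store ferritin, had 2704, 3591, 4151 and 3955 TPM, and it was lowest in replicate 1. *Ftl1_1*, a row of the light chain, had 1472, 1670.4, 1756 and 1723 TPM, and *Ftl1_2* had 671, 722, 775 and 736 TPM. *Ncoa4_1*, the receptor that carries ferritin to autophagy, had 566, 647, 889.6 and 627 TPM. The iron handling class held 5.21% ± 0.324 of the remaining TPM, and all 19 of its rows were found in every library. Members of a list that are named here and below for a low value were chosen after their values were seen. *Tfrc*, the transferrin receptor, was at 12.7 TPM, and *Hmox1*, the inducible heme oxygenase, at 0.234 TPM. Genes of heme synthesis matched by symbol held 0.490% ± 0.0401, a sum that leaves out *Alas2*. Of this sum, *Fech*, the enzyme that inserts iron into protoporphyrin, gave 66.0%. *Fech* had 348, 413, 592 and 407 TPM. *Slc25a37*, the mitochondrial iron importer of erythroid cells, had 79.9 ± 21.9 TPM and *Urod*, a decarboxylase of the pathway, 50.6 ± 3.07 TPM. No row carried the symbol of *Alas2*, the erythroid form of the first enzyme of the pathway, so its level is not given. Whether a row without a symbol, such as ENSRNOG00000000167 on chromosome X, holds *Alas2* was not checked. *Alas1*, the form of other tissues, was at 0.178 TPM. Genes of iron-sulfur cluster assembly were looked at after their values were seen. *Isca1* had 436 ± 22.1 TPM, *Iscu* 154 ± 23.3 TPM and *Hscb* 145 ± 16.0 TPM.

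The ubiquitin conjugation class held 4.51% ± 0.143 of the remaining TPM, led by *Ubb*, which encodes polyubiquitin. *Ubb* had 3374, 3927, 4569 and 4045 TPM, and its share of the remaining counts differed at most 1.05-fold between libraries. The ligase gene *Rnf10* had 684, 799, 1079 and 916 TPM, and *Marchf2*, another ligase gene, had 461, 481, 490.6 and 446 TPM. *Mkrn1*, a ligase gene outside the list, had 528, 608, 686 and 589 TPM. Of the 51 rows on the list, 37 reached a mean of 1 TPM. The proteasome, which degrades ubiquitin-tagged proteins, held 0.161% ± 0.00847, with 45 of 47 rows found in every library and *Psma6* (52.2 ± 7.27 TPM), *Psmf1* (40.5 ± 10.2 TPM) and *Psmd4* (40.1 ± 4.66 TPM) leading. Its share of the TPM was thus far below that of the ubiquitin genes in each library.

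Organelle clearance, the removal of mitochondria and other organelles from the reticulocyte, held 1.70% ± 0.0546. *Alox15*, the lipoxygenase that attacks organelle membranes, had 708, 778, 1088 and 886 TPM. *Bnip3l*, the receptor that marks reticulocyte mitochondria for autophagy, had 549, 549, 608 and 534 TPM, and *Gabarapl2*, a protein of the autophagosome membrane, had 358, 493, 637 and 486 TPM. *Bnip3*, the close relative of *Bnip3l*, was at 0.00932 TPM. The whole list moved little between libraries, with a ratio of 1.04 between the highest and the lowest in CPM of the remainder.

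Antioxidant genes held 2.11% ± 0.0490 of the remaining TPM and 1.22% of the remaining counts. *Prdx2*, the peroxiredoxin that is abundant in RBCs, gave 50.1% of the class, with 1235, 1423, 1611 and 1449 TPM. *Gpx1*, a glutathione peroxidase, had 546, 605, 728 and 592 TPM, and *Glrx5*, a mitochondrial glutaredoxin of the iron-sulfur pathway, had 205, 218, 222 and 212 TPM. *Slc25a39*, which carries glutathione into mitochondria, had 569.8, 682, 797 and 783 TPM. In contrast, *Prdx1* was at 10.8 TPM, and *Sod1*, the cytosolic superoxide dismutase, at 0.349 TPM.

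Glycolysis and the 2,3-bisphosphoglycerate (2,3-BPG) shunt held 0.870% ± 0.0701, and 96.2% of this came from *Bpgm*, the enzyme that makes 2,3-BPG, which lowers the oxygen affinity of hemoglobin. *Bpgm* had 950.0, 1060.3, 1465 and 1076 TPM. The next rows were *Taldo1*, of the pentose phosphate pathway, with 20.6 ± 4.39 TPM, and *Aldoa*, an aldolase, with 5.58 ± 0.951 TPM. *Gapdh* was at 2.47 TPM and *Pklr*, the pyruvate kinase of red cells, at 0.922 TPM. *Car2*, a carbonic anhydrase of RBCs, had 705, 823, 969.8 and 904 TPM.

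The red cell surface and transport list held 0.703% ± 0.0508, with 33 of 35 rows found in every library. *Slc4a1*, the anion exchanger band 3, had 159, 204, 323 and 243 TPM. *Rhd*, the Rh antigen protein, was steadier, with 107, 109, 122 and 109 TPM. The membrane skeleton held 0.591% ± 0.0478, and all 15 rows were found in every library. *Epb41*, which encodes protein 4.1, had 175, 209, 335 and 234 TPM, *Actb*, beta actin, 222 ± 48.5 TPM, and *Add2*, beta adducin, 117 ± 9.52 TPM. *Sptb*, a spectrin gene, and *Ank1*, the gene of ankyrin, were chosen after their values were seen and were lower, with 37.8 ± 15.3 and 13.6 ± 3.78 TPM. *Lgals5*, a galectin known from rat reticulocytes, had 816, 909.5, 1005 and 924 TPM.

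Ahead of other chaperones, *Ahsp*, which stabilises free alpha globin, had 427, 492, 585 and 508 TPM. It gave 80.6% of the class of heat shock proteins and chaperones, which held 0.461% ± 0.00651. *Dnajb2* (51.4 ± 3.26 TPM) and *Dnajb6* (11.8 ± 1.32 TPM) followed. *Hspb1* had 0 counts in all 4 libraries. Erythroid transcription regulators held 0.437% ± 0.0284 as a list. *Hemgn*, a nuclear regulator of erythroid cells, had 230.1, 281, 319.8 and 317 TPM, *Lyl1*, a factor related to *Tal1*, 77.7 ± 15.8 TPM, and *Nfe2*, an activator of globin genes, 48.8 ± 10.1 TPM. *Klf1* and *Gata1*, the main activators of red cell genes, were named after their values were seen and had 46.7 ± 4.96 and 25.9 ± 2.33 TPM.

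Promoters of 4 red cell markers are shown because these genes of one cell type lie at levels as far apart as 46.7 and 1138 TPM. The sequences are the 250 bases before the annotated start in RefSeq, on build GRCr8, written from 5′ to 3′ on the gene's strand. Capitals mark letters of a GATA-type motif (AGATAA and AGATAG, or TGATAA and TGATAG, on either strand) or of CACCC (on either strand), the type of motif bound by *Gata1* and *Klf1* proteins, and the motifs do not overlap each other in these 4 windows.
*Bpgm*, chr4:64107027-64107276, plus strand: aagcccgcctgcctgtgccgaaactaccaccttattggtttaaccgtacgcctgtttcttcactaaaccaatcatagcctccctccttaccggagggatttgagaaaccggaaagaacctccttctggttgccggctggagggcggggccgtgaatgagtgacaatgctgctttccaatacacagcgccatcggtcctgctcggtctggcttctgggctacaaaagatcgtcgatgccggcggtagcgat
*Hemgn*, chr5:65485822-65486071, minus strand: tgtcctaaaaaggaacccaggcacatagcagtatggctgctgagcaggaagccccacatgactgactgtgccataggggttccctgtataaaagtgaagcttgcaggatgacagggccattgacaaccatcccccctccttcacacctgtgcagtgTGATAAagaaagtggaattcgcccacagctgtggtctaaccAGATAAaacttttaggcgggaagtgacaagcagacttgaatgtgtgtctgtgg
*Epb42*, chr3:128451684-128451933, minus strand: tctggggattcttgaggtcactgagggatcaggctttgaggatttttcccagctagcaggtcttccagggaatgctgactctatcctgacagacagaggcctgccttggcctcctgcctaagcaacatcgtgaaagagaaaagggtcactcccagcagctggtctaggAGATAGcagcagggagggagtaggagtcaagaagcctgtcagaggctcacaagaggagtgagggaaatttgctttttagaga
*Klf1*, chr19:40158652-40158901, minus strand: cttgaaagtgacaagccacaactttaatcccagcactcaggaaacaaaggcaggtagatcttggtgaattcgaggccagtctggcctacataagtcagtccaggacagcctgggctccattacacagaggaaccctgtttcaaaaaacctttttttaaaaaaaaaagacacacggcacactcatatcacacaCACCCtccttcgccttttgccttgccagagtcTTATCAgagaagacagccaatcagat

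*Bpgm*, the most abundant of the 4, has neither motif in this window, *Hemgn* has 2 GATA-type matches, *Epb42*, which encodes protein 4.2, has 1 at a level of 65.8 TPM, and *Klf1* has 1 of each. *Hemgn* has 2 annotated starts, and the other one holds neither motif. Of the 13 red cell markers, 7 matched a RefSeq promoter, and 4 of these 7 held a GATA-type motif, against 28.5% of all 27457 genes with a promoter. CACCC was found in 4 of 7, against 51.4% of all genes. A match is a description of letters only.

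Small structured RNAs held 1.49% ± 0.133 of the remaining TPM, and 75.7% of this was *Rpph1*, the RNA of ribonuclease P, with 1471, 1552, 1561 and 1487 TPM. *RNase_MRP*, a related RNA, had 96.9 ± 11.9 TPM, and *Y_RNA_5* had 84.0 ± 27.1 TPM with its highest value of 123 TPM in replicate 4. Histones held 0.302% ± 0.0521, led by *H3f3a_2*, a row of the replacement histone H3.3, with 179, 319.7, 349.7 and 273 TPM. The 4 minor globin rows together held 0.0319% ± 0.00325, with *Hbg1* at 22.5 ± 4.02 TPM and *Hbe1* at 12.9 TPM. Regulators of apoptosis held 0.0184% ± 0.00245, with *Bcl2l1*, a survival gene of erythroid cells, at 9.60 ± 2.01 TPM and *Mcl1* at 6.37 ± 1.60 TPM. *Tug1*, from a list of nuclear-retained RNAs of which 1 was analysed here, was at 0.394, 0.486, 0.0351 and 0.502 TPM. *Cdc25b*, a phosphatase that activates cyclin-dependent kinases, stood at rank 13 with 1314, 1411, 1661 and 1471 TPM, while the list of cell cycle genes that mark erythroid progenitors summed to 69.8 ± 4.70 TPM. *Tk1*, *Top2a* and *Mki67* led that list with 22.1 ± 2.96, 20.4 ± 1.31 and 8.83 ± 0.986 TPM. *B2m*, the light chain of MHC class I, had 569, 589, 671 and 653 TPM.

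The 4 libraries were compared with each other in CPM of the remainder, that is, counts scaled by the sum of the counts left after the set-aside rows. Rows were tested when their mean count was at least 100, and a row was called uneven when its highest library was at least 2-fold above its lowest. Of 3496 rows, 262 were uneven (7.49%), and the median ratio was 1.33. The biological coefficient of variation over all these rows, estimated in edgeR without groups, was 16.2%. The share of uneven rows was 15.8% below a mean of 1 TPM, 6.73% from 1 to 10 TPM, 2.49% from 10 to 100 TPM and 2.78% above, so the abundant part of the transcriptome was the most alike. Pearson correlations of log2 values between pairs of libraries, over rows of one table that share their lengths, were 0.982 to 0.992, lowest between replicates 1 and 3.

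Replicate 1 was the lowest library in 189 of the 262 uneven rows, and replicate 2 was the highest in 116. Without replicate 1 the number of uneven rows was 59, and without replicate 2, 3 or 4 it was 185, 188 or 236. Leaving out a library can only lower a ratio. These rows are therefore among the 262 by construction. The share of uneven rows was 7.49% over all rows tested. Among classes defined by function with at least 10 rows tested, it was highest for markers of other blood cells (11 of 43). Antioxidant genes (4 of 18), glycolysis and 2,3-BPG (2 of 11) and RNA binding and decay (3 of 26) followed. With 2 to 4 uneven rows each, these 3 classes cannot be set apart from the share of all rows. The share was lower in the other classes, such as ribosomal proteins (2 of 75), ubiquitin conjugation (1 of 36) and iron handling (0 of 13). Of the 13 red cell markers 1, *Sptb*, was uneven, with a ratio of 2.07 and its lowest value in replicate 1.

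The 10 genes with the largest ratios were led by *Phf7*, which encodes a PHD finger protein. *Phf7* had 57.9, 1.97, 39.9 and 64.6 TPM in replicates 1 to 4, a ratio of 32.9. It was low in replicate 2 alone, where 224 counts were found against 3589 to 7200 in the other libraries, and without replicate 2 the ratio was 1.995. *Bap1*, a deubiquitinase gene, was also low in replicate 2 alone, with 9.35, 1.47, 6.78 and 9.95 TPM. *Phf7* (chromosome 16, 6433537 to 6446911, minus strand) and *Bap1* (6446709 to 6455535, plus strand) overlap at their starts on mRatBN7.2, so reads of the one may have been counted for the other. *Ube2c*, which encodes the ubiquitin-conjugating enzyme of the anaphase-promoting complex, had 7.28, 12.4, 15.2 and 88.3 TPM and was high in replicate 4 alone. The other 7 genes were low in replicate 1 and lay at a mean of 0.189 to 1.12 TPM. Of these *Wdfy3* had a ratio of 5.54, *Gbp6_2* 5.36, *Kdm6b* 4.73, *Mgam_1* 4.65, *Dock8* 4.46, *F5* 4.21 and *Agrn* 3.86. Without replicate 1 these ratios were 1.20 to 2.16.

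**Figure D4:**
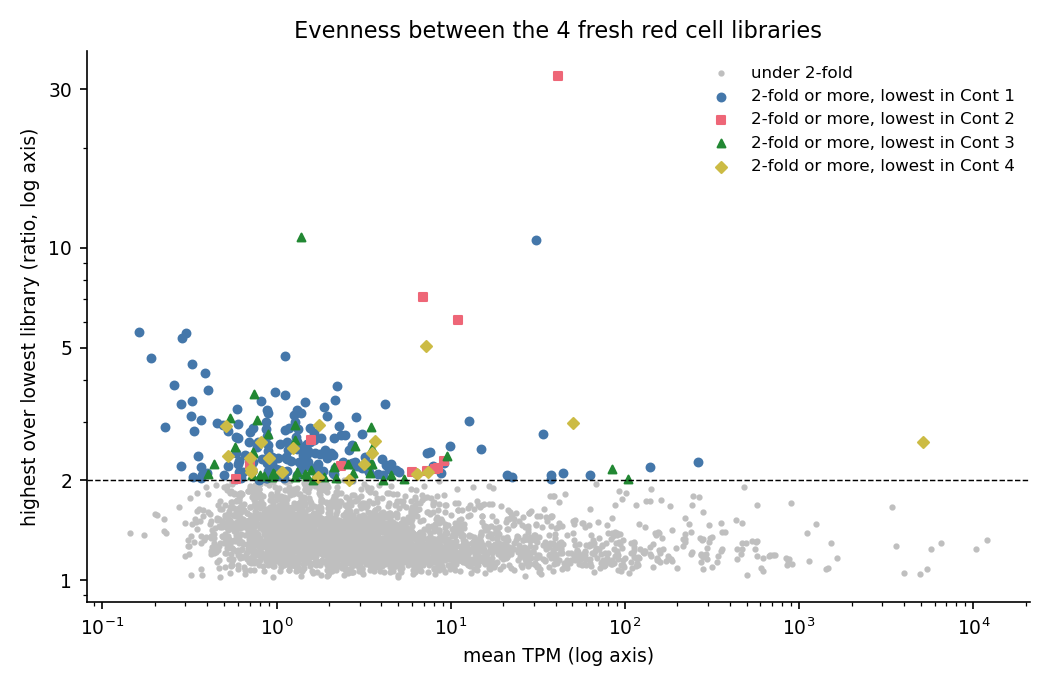
Ratio of the highest to the lowest Cont library (log axis) against mean TPM (log axis) for the 3496 rows with a mean count of at least 100, with the 262 uneven rows coloured by the library in which they were lowest. The dashed line is at 2, and most points above it are lowest in Cont replicate 1.

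Traces of other blood cells were read from 12 marker lists beside a list of red cell markers. All 13 red cell markers in the table were found in every library, and they summed to 2876, 3342, 4427 and 3561 TPM. The 9 leukocyte lists together summed to 392, 669, 723 and 591 TPM, or 0.435% ± 0.0766 of the remaining TPM, and to 0.224% of the remaining counts. Red cell markers thus stood above leukocyte markers 7.341-fold, 4.998-fold, 6.12-fold and 6.025-fold in replicates 1 to 4 by TPM, and 14.5-fold, 9.03-fold, 11.5-fold and 13.2-fold by counts. These ratios set 13 red cell markers against 149 leukocyte markers, so they depend on the lists and do not measure purity. In bulk RNA, fewer cells of a type and less RNA per cell cannot be told apart.

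A single gene, *Cd52*, a surface glycoprotein of leukocytes, gave 81.5% of the pan-leukocyte list, with 157, 242, 272 and 304 TPM. *Ptprc*, the leukocyte common antigen CD45, had 1.498, 3.644, 4.358 and 2.814 TPM. *Tyrobp* (11.4 ± 2.60 TPM) and *Lcp1* (7.30 ± 2.56 TPM), both of leukocyte signalling or motility, lay between them. The neutrophil list summed to 182 ± 59.4 TPM, led by the calprotectin genes *S100a9*, with 64.98, 111, 109 and 67.8 TPM, and *S100a8*, with 35.6, 58.4, 71.8 and 39.6 TPM. *Retnlg*, a resistin-like gene of rodent granulocytes, had 7.29, 17.5, 24.9 and 10.1 TPM. Of the 29 neutrophil rows, 24 had a count in at least 1 library, granule genes among them. The other 5 rows, the granule genes *Mpo*, *Ltf*, *Lcn2*, *Prtn3* and *Defa5*, had 0 counts in all 4 libraries. These 5 are made during neutrophil maturation in the marrow. Such a 0 allows up to 3 counts in a library, or 0.273 to 0.281 CPM of the remainder. Should each pair have added 2 counts, it allows up to 6 counts, or 0.545 to 0.562 CPM. The monocyte and macrophage list summed to 72.4 ± 24.1 TPM, and 93.8% of it was *Lyz2*, lysozyme, with 41.7, 91.1, 81.6 and 57.5 TPM. *Fcgr1a* and *Mpeg1* followed with 2.94 ± 0.887 and 0.514 ± 0.247 TPM, while *C1qb*, *C1qc*, *Marco* and *Ms4a7* had 0 counts.

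Lymphocyte signals were lower. The T cell list summed to 11.5 ± 2.62 TPM, and *Cd3e*, a chain of the T cell receptor complex, was at 0.365 ± 0.0907 TPM. The B cell list summed to 6.59 ± 1.40 TPM, led by *Cd79a* (1.52 ± 0.358 TPM), of the B cell receptor, and *Ighm* (1.10 ± 0.274 TPM), its heavy chain. Plasma cell and NK cell lists summed to 1.56 ± 0.504 and 1.77 ± 0.435 TPM, and *Nkg7*, a granule gene of NK cells, had 6, 2, 0 and 10 counts. The dendritic cell and MHC class II list summed to 9.70 ± 1.77 TPM, led by *Cd74* (3.64 ± 0.535 TPM). The eosinophil, basophil and mast cell list summed to 8.99 ± 3.41 TPM, and *Ms4a2*, of the mast cell IgE receptor, had 0, 4, 4 and 0 counts. Platelet genes were found at low levels. Of their 18 rows 13 were found in every library, and the list summed to 2.54 ± 0.484 TPM and 765 counts over the 4 libraries, with *Gp1ba*, a platelet receptor gene, at 28, 40, 50 and 50 counts, *Pf4*, platelet factor 4, at 0.866, 0.316, 0.199 and 0.530 TPM, *Itga2b* at 0.0731 ± 0.0135 TPM and *Ppbp* at 3 counts in replicate 4 and 0 in the others. The list of endothelial and plasma RNAs summed to 0.609 ± 0.228 TPM.

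**Figure D5:**
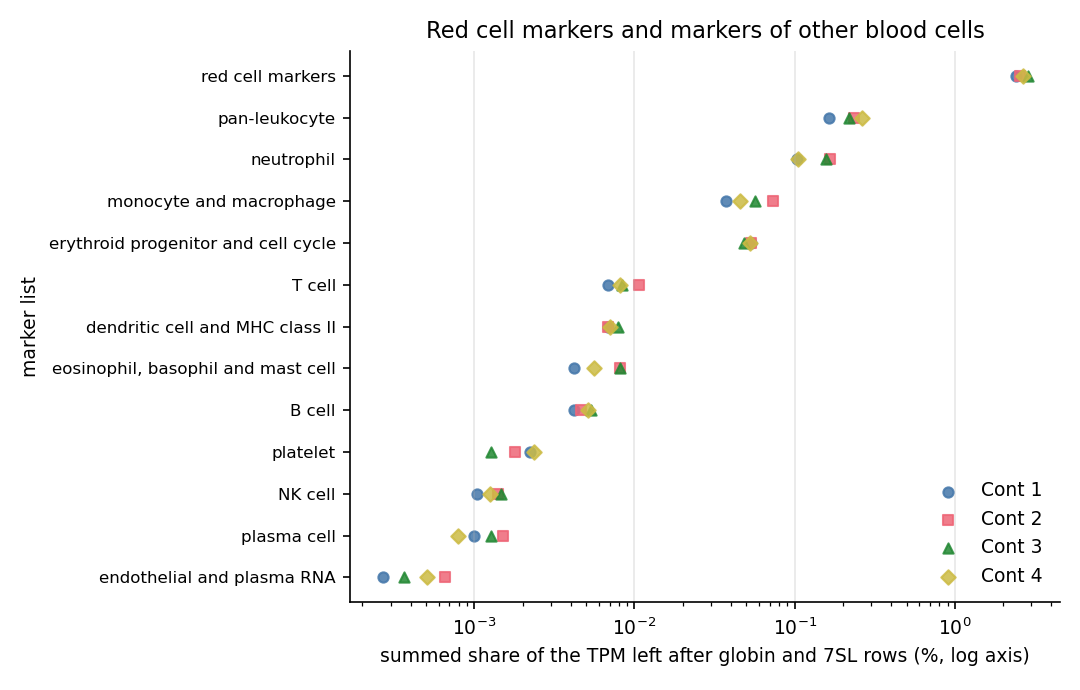
Summed share of the TPM left after globin and 7SL rows (%, log axis) for the red cell markers and for each list of other blood cells, with 1 point for each Cont library. Red cell markers lie at 2.41% to 2.84%, and in each list led by granulocyte or monocyte genes Cont replicates 2 and 3 lie above replicate 1.

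Replicate 1 was the lowest library in 8 of the 9 leukocyte lists in CPM of the remainder, and replicate 2 was the highest in 6. The ratio of the highest to the lowest library was 2.01 for the plasma cell list, the one that was lowest in replicate 4, 1.96 for monocytes and macrophages, 1.86 for eosinophils, basophils and mast cells, 1.74 for neutrophils, 1.73 for T cells, 1.61 for the pan-leukocyte list, 1.51 for NK cells, 1.33 for B cells and 1.08 for the dendritic cell and MHC class II list, against 1.17 for the red cell markers and 1.15 for the cell cycle list. Of the leukocyte markers tested for evenness 11 of 36 were uneven, beside 7.49% of all rows, and without replicate 1 the number was 2, beside 1.69% of all rows. Replicate 1 is thus low in leukocyte markers and in most uneven rows alike, and the part of leukocyte RNA in the unevenness of other genes was not tested.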

How the data were processed

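Total RNA of purified rat RBCs was depleted of rRNA and sequenced in paired reads of 36 bases. CLC Genomics Workbench 22.0 was used by the authors for mapping to mRatBN7.2 with annotation release 105, and 1 table of genes was deposited for 12 libraries, of which the 4 Cont libraries were used. Its deposited counts per gene are raw and not normalized. The deposited TPM values are scaled by the authors for transcript length and to the same sum in each library. Other deposited columns hold further normalized values and the authors' own comparisons of the storage groups, and they were not used. All value columns read here were tied to samples by their names.

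Rows whose name starts with *Hba*, *Hbb* or Metazoa_SRP, and *Rn7sl1*, were set aside. The other rows were ranked by mean TPM, and each was put into 1 class by its symbol or position, the first matching class being kept. Shares are per library, with the mean and SD of 4. Unevenness was computed on CPM of the remainder (counts scaled by the sum of those left), for rows with a mean count of at least 100, and dispersion was estimated with edgeR 4.0.16 in R 4.3.3 with an intercept only. The scripts were tested on simulated data. Alternatives used TMM, DESeq2 1.42.0 size factors, other filters, a pseudocount of 0.1 TPM, medians, counts in place of TPM and each library left out in turn. Plots were drawn in Python 3.11.15 with pandas 2.3.3 and matplotlib 3.10.9. Promoters come from RefSeq on GRCr8, matched by symbol. The study describes 1 aliquot per rat for each storage condition, so the 4 libraries are read as 4 rats, though which rat gave which replicate is not given in the sources used here. A check for duplicate libraries found none.

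The named genes are the 30 highest rows, the 3 highest members of each of 27 lists and of the classes, 12 markers of other blood cells and the 10 uneven genes with a symbol and the largest ratio. The members and lists were chosen with earlier results of these data known. A few genes that this rule names are not reported here.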

Additional observations from a re-analysis of the deposited data

Results flagged for a closer look

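Of 201 values tested for 1 library standing apart from the other 3 by Dixon's criterion, 7 did, and chance alone gives about 1 in 20, or 10.1. In replicate 3, 3 values were high on the scale tested. The glycolysis and 2,3-BPG share was 0.974% of the remaining TPM against 0.823% to 0.843%, and *Bpgm* gives 96.2% of that class. ENSRNOG00000000167 had 6178 TPM against 5474 to 5581, and *Rhd* had 122 TPM against 107 to 109. As shares of the remaining TPM both turned, with replicate 3 lowest: 4.67%, 4.15%, 3.97% and 4.14% in replicates 1 to 4 for ENSRNOG00000000167, and 0.0898%, 0.0830%, 0.0781% and 0.0816% for *Rhd*. In replicate 1, the sex-linked genes, led by *Kdm6a* and the Y-linked *Kdm5d*, summed to 11.9 TPM against 14.3 to 14.7, but to shares of 0.00999%, 0.0109%, 0.00946% and 0.0107%, among which replicate 1 was not the lowest. *Rnu11*, a small nuclear RNA, had 0.358 TPM against 0 in the others. In replicate 4, *Ube2c* had 88.3 TPM against 7.28 to 15.2, and *Ppbp*, a platelet gene, had 0.231 TPM, which is 3 counts, against 0. For *Rnu11* and *Ppbp* the other libraries are at 0, so any value above 0 meets the criterion. The rate of 1 in 20 does not apply to them. The remainder was 15.6% of the TPM in replicate 3 and 11.9% in replicate 1.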

How the results depend on the processing

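Results are descriptions of 4 libraries of 1 group, and rows near a few counts are limited by depth, since 10677492 to 11000708 counts per library lie outside the set-aside rows. No paired analysis was possible because only 1 group was used. The class shares depended on what the share was taken of. As a share of counts instead of TPM, ribosomal proteins held 2.40%, iron handling 3.88%, ubiquitin conjugation 6.04%, antioxidant genes 1.22%, organelle clearance 2.37% and leukocyte markers 0.224%, since counts are not divided by length. With mitochondrial and small RNA rows also set aside, these classes came by construction to 7.21%, 5.98%, 5.18%, 2.42% and 1.95% in the same order, and RNA binding and decay to 5.83%. A filter at a mean of 1 TPM moved none of these 6 class shares by more than 1 SD. Leaving out 1 of 4 libraries cannot move a mean share by as much as 1 SD of the 4 values. It is therefore no check of these shares.

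The number of uneven rows was 1055 (17.5%) with a mean count of at least 30 and 4688 (43.4%) with no filter beyond 1 count in each library, which admit rows with fewer counts. It was 59 to 236 when a library was left out, which can only lower it, and it was lowest without replicate 1. With all counts as the scale it was 356, with TMM 243, with DESeq2 size factors 239, on log2(TPM + 0.1) 349, and 248 when the rows beside the 5.8S rRNA row were also left out of the scale, an alternative chosen after seeing the data. By CPM 23 of the 30 highest rows stayed in the top 30, by the median all 30, and without a library 29 or 30. From 14 to 16 rows held 50% of the remainder in every alternative. For single genes and the other classes and lists, 176 alternative values lay within 1 SD and 69 beyond it. When a library was left out, 707 lay within and 13 beyond. A mean over the libraries cannot move by as much as 1 SD when a library is left out. For such means, lying within 1 SD is therefore fixed beforehand, and the 707 are not read as a sign of stability. No value changed direction, as none is a difference between groups.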

Other observations

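The levels of 3 genes known to be induced by interferon are given here, chosen after their values were seen and with no list behind them. Others were low, such as *Ifit3* at 16.7 TPM and *Ifit2* at 2.66 TPM. *Rsad2*, an antiviral enzyme gene induced by interferon, had 279, 261, 346 and 276 TPM in replicates 1 to 4 and stood at rank 61. *Irf7*, a transcription factor of the interferon response, had 317, 230.1, 245 and 277 TPM at rank 72, above *Slc4a1* at rank 79. *Ifit1bl* had 88.4, 88.7, 99.1 and 72.7 TPM at rank 168. As a share of the remaining counts, *Irf7* was highest in replicate 1, and the ratio between its highest and lowest library was 1.78. Which cells the RNA of these genes came from was not tested.

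The Y-linked genes *Kdm5d* (5.78 ± 0.458 TPM) and *Eif2s3y* (1.09 ± 0.182 TPM) were found in all 4 libraries of these male rats. *Tspo2*, a gene of late erythroid cells, was at 1.45 ± 0.0851 TPM.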
